A study of Mus musculus with 12 samples.

Results

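The acute phase genes described here are 10 genes that the liver transcribes more strongly during inflammation: Saa1, Saa2, Saa3, Hp, Lcn2, Orm1, Orm2, Steap4, Itih4 and Fgl1. They were chosen by gene symbol in the array's probe annotation, with the probe of highest mean over the 12 arrays kept where a gene had several. Each of the 10 had 1 probe, out of 19938 genes with a probe of 1 symbol. All 10 were above the background level of 4.34, the 95th percentile of olfactory receptor genes averaged over arrays, in all 12 livers, and all 10 entered the tests.

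The livers came from 12 male C57BL/6J mice, 1 one-colour Affymetrix array per animal, in 4 groups of 3. The mTERT KO mice lack the reverse transcriptase of telomerase, the enzyme that extends chromosome ends, and the mTERT WT mice are their wild-type littermates. The mTR KO mice lack the RNA template of telomerase, and the mTR WT mice are the wild-type littermates of that line. Both knock-outs are of the first generation (G1), the labels name no treatment, and ages were matched but are not stated. Each line holds 3 sets of littermates, and the number in a sample's label was read as its set, so that mTERT KO 1 and mTERT WT 1 form litter 1 of the mTERT line. Values are log2 intensities as deposited, with the base of the logarithm inferred from their range. The 10 hepatocyte genes measured, such as albumin (Alb), averaged between 12.13 and 12.31 in all 12 arrays. In whole liver, fewer cells of a type and less RNA per cell cannot be told apart.

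The acute phase response is the liver's answer to injury or infection elsewhere in the body. Interleukin 6 and interleukin 1 from macrophages act on hepatocytes through STAT3, NF-kappa-B and C/EBP factors, which raise the transcription of secreted plasma proteins. Serum amyloid A is the most inducible of these in the mouse, and albumin and several carrier proteins are made less.

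A single wild-type liver, mTERT WT 1, carried the strongest acute phase signal of the series. All 10 genes were highest in mTERT WT 1 of the 12 arrays, against 10.2% of all 20197 tested probes. Of the 10 genes, 6 stood more than 1 log2 unit above every other array there, against 0.0693% of tested probes, a total of 14 probes. The mean of the 10 genes was 10.83 in mTERT WT 1, against 8.48 to 9.24 in the other 11 livers, with mTERT KO 1, the littermate, at 9.24. This array was singled out after its values were seen, and the 10 genes were chosen with earlier results of these data known. The counts and shares are therefore a description and no test. The differences of the 10 genes from mTERT WT are given below with all arrays and, for most counts, medians and genes, also without it.

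**Figure D1:**
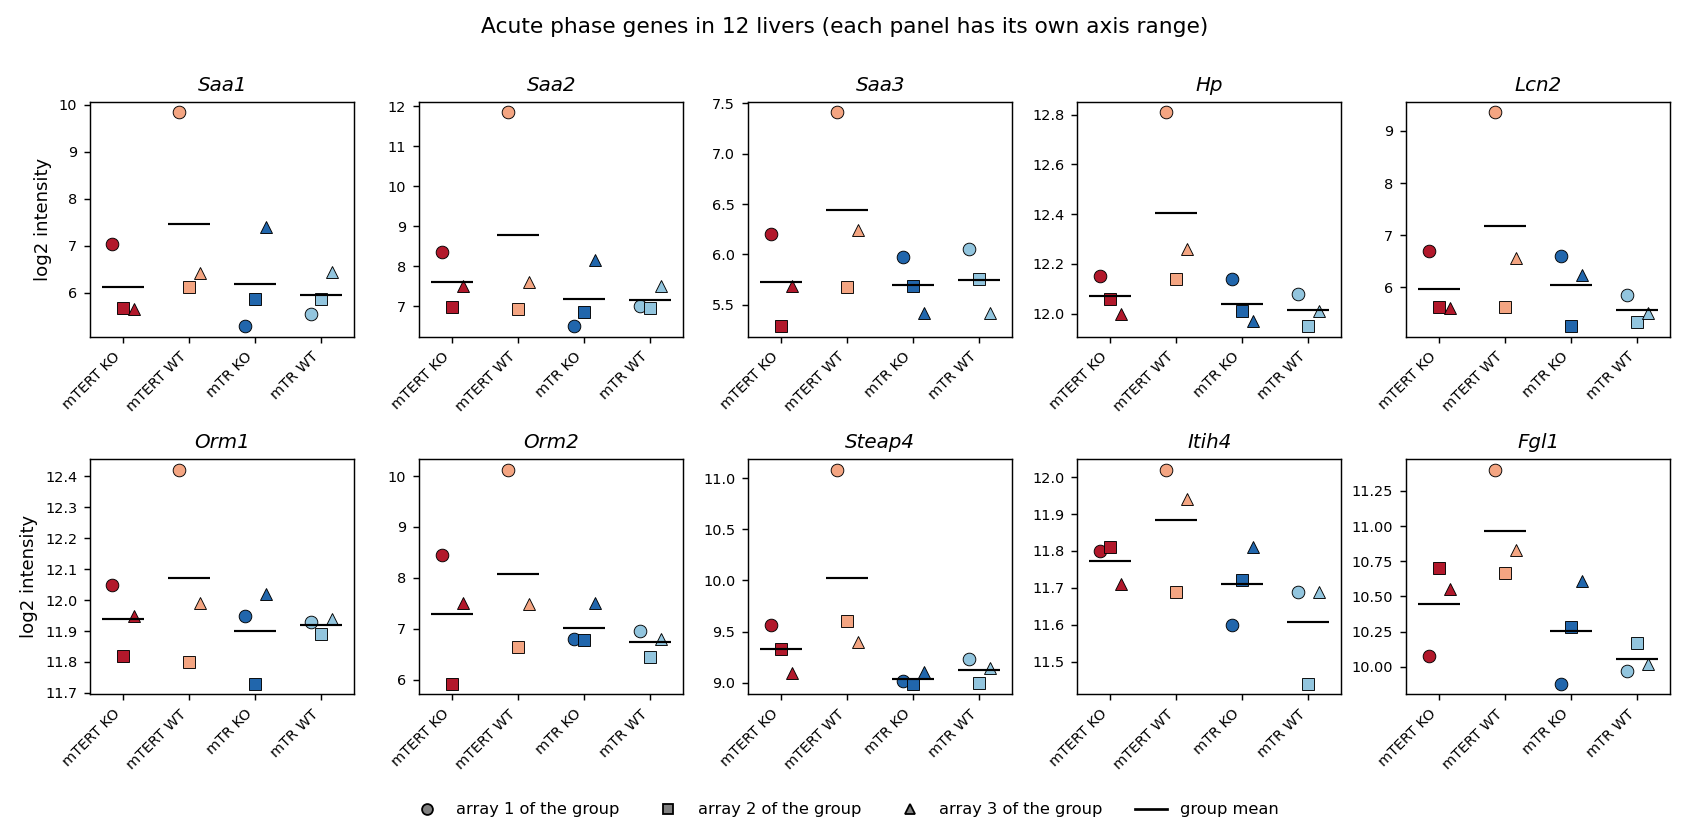
Log2 intensity (vertical axis) of the 10 acute phase genes in each of the 12 livers, by group, with the array number as the symbol and the group mean as a line. In all 10 panels the circle of mTERT WT, its array 1, is the highest point.

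The serum amyloid A genes encode small apolipoproteins of high-density lipoprotein that the liver secretes in inflammation, and Saa1 and Saa2 are close copies. Saa1 (chromosome 7, 46740497 to 46743181, GRCm38.p6) and Saa2 (chromosome 7, 46751833 to 46754313) lie head to head, and RefSeq's sequences of the 250 bases before their start sites were identical at 238 of 250 aligned bases, or 95.2%. The other pairs among the 7 members matched to RefSeq's promoter table shared between 48.8% and 57.2% of aligned bases. No share for unrelated sequences is given beside it, so that range is not read as likeness. The Saa1 sequence lies partly within the gene span given here, and the Saa3 sequence lies wholly within its gene's span. For Saa1 and Saa3 the start site used is therefore not the outer end of the span. Probes for such close copies may bind both transcripts, so Saa1 and Saa2 are not independent readouts.

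The sequences before the start sites of the 5 matched genes with the widest gap between mTERT WT 1 and the other arrays are shown, since these genes were high together in that liver. Capitals mark matches on either strand to a C/EBP motif (TTNNGCAA), an NF-kappa-B motif (GGG, any 2 bases, then TTTCC), a STAT motif (TTCNNNGAA) and an interleukin 6 response motif (CTGGGAA). No match of one motif overlapped a match of another.
Saa2: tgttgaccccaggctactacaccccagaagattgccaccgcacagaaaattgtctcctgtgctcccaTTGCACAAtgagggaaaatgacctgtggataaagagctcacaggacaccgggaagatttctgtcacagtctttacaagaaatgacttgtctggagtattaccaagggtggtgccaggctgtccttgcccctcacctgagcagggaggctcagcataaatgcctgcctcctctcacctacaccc
Lcn2: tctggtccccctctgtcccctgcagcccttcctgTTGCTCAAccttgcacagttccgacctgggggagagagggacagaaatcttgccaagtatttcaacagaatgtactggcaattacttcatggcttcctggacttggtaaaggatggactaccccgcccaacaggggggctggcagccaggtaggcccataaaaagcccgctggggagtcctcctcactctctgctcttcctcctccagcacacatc
Saa1: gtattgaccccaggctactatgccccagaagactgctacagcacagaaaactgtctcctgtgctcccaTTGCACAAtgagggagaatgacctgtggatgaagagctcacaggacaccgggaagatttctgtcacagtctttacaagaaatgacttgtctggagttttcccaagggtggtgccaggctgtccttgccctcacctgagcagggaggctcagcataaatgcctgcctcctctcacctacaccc
Orm2: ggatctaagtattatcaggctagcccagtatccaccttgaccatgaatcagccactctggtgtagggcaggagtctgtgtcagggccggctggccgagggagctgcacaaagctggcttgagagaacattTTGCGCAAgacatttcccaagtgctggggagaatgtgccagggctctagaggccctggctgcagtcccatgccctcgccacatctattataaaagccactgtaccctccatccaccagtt
Steap4: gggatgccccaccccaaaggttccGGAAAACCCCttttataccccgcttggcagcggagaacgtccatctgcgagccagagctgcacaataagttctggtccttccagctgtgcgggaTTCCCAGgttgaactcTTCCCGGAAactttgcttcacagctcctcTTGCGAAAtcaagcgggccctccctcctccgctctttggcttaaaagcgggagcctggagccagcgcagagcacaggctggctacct
The coordinates, all GRCm38.p6 from RefSeq, are chr7:46751583-46751832 on the plus strand for Saa2, chr2:32387740-32387989 on the minus strand for Lcn2, chr7:46742981-46743230 on the minus strand for Saa1, chr4:63362199-63362448 on the plus strand for Orm2 and chr5:7960222-7960471 on the plus strand for Steap4. The C/EBP motif occurred in 6 of the 7 matched members, Itih4 being the one without it, and in 9.56% of 32851 RefSeq sequences of the same length. The NF-kappa-B motif occurred in 1 of 7 (Steap4) against 1.41%, the STAT motif in 2 of 7 (Steap4 and Itih4) against 7.02%, and the interleukin 6 motif in 1 of 7 (Steap4) against 9.1%. Saa1 and Saa2 share their match as part of a near-identical sequence. A match describes letters and is not evidence of binding. Hp, Orm1 and Fgl1 are named only.

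Saa2 read 8.35, 6.98 and 7.49 in mTERT KO livers 1 to 3, against 11.85, 6.93 and 7.59 in mTERT WT livers 1 to 3. In the mTR line it read 6.50, 6.86 and 8.15 in KO, against 7.0, 6.96 and 7.49 in WT. Array mTERT WT 1 stood 3.50 log2 units (11.3-fold) above the next array, its littermate mTERT KO 1, while the KO and WT ranges of each line overlapped.

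Saa1 read 7.03, 5.68 and 5.65 in mTERT KO, against 9.84, 6.13 and 6.41 in mTERT WT. It read 5.29, 5.87 and 7.39 in mTR KO, against 5.54, 5.87 and 6.43 in mTR WT. The next array after mTERT WT 1 was mTR KO 3, 2.45 log2 units (5.48-fold) below it, and mTERT KO 1 came next. In both genes mTR KO 3 was the highest liver of the mTR line and mTR KO 1 the lowest of all 12.

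Saa3, which in the mouse is made by macrophages and fat cells as well as the liver, read 6.20, 5.29 and 5.69 in mTERT KO, against 7.41, 5.68 and 6.24 in mTERT WT. In the mTR line it read 5.97, 5.69 and 5.42 in KO, against 6.05, 5.76 and 5.42 in WT. Here mTR KO 3 was level with mTR WT 3 and was not high, unlike in Saa1 and Saa2.

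The orosomucoids, or alpha-1-acid glycoproteins, bind drugs and dampen inflammation. Orm2 read 8.44, 5.92 and 7.50 in mTERT KO, against 10.12, 6.64 and 7.49 in mTERT WT, and 6.79, 6.78 and 7.50 in mTR KO, against 6.96, 6.44 and 6.80 in mTR WT. Among the 11 livers other than mTERT WT 1 it spanned 2.52 log2 units, the widest of the 10 genes, from mTERT KO 2 to mTERT KO 1.

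Orm1 read 12.05, 11.82 and 11.95 in mTERT KO, against 12.42, 11.80 and 11.99 in mTERT WT, and 11.95, 11.73 and 12.02 in mTR KO, against 11.93, 11.89 and 11.94 in mTR WT. Its whole span over 12 livers was 0.69. Orm1 and Orm2 are close copies in one cluster on chromosome 4, and mTERT WT 1 and mTERT KO 1 were the top pair for both.

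Lcn2 encodes lipocalin 2, which withholds iron from bacteria by binding their siderophores and is made by neutrophils as well as by inflamed hepatocytes. It read 6.70, 5.62 and 5.59 in mTERT KO, against 9.36, 5.62 and 6.55 in mTERT WT, and 6.60, 5.25 and 6.24 in mTR KO, against 5.84, 5.33 and 5.50 in mTR WT. Array mTERT WT 1 was 6.31-fold above mTERT KO 1, the next. All 15 neutrophil genes measured had means below background, among them S100a8, S100a9 and Ly6g, and their mean was 3.81 in mTERT WT 1, against 3.65 to 3.81 in the other 11.

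Hp encodes haptoglobin, which binds free haemoglobin. It read 12.15, 12.06 and 12 in mTERT KO, against 12.81, 12.14 and 12.26 in mTERT WT, and 12.14, 12.01 and 11.97 in mTR KO, against 12.08, 11.95 and 12.01 in mTR WT. Without mTERT WT 1 the livers lay within 0.31 log2 units of each other, the narrowest span of the 10 genes.

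Steap4 encodes a metalloreductase of iron and copper that inflammation induces in liver and fat. It read 9.56, 9.33 and 9.09 in mTERT KO, against 11.08, 9.60 and 9.40 in mTERT WT, and 9.02, 8.99 and 9.10 in mTR KO, against 9.23, 9.0 and 9.14 in mTR WT. It was lower in KO in all 3 litters of both lines, with differences of −0.216, −0.019 and −0.041 in the mTR line, where KO and WT ranges overlapped. In the mTR line 1 of the 10 genes was lower in all 3 litters, against 14.8% of tested probes.

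Itih4, an inter-alpha-trypsin inhibitor heavy chain, read 11.80, 11.81 and 11.71 in mTERT KO, against 12.02, 11.69 and 11.94 in mTERT WT. It read 11.60, 11.72 and 11.81 in mTR KO, against 11.69, 11.44 and 11.69 in mTR WT. At 0.08 log2 units its gap between mTERT WT 1 and the next array, mTERT WT 3, was the smallest of the 10.

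Fgl1 encodes a fibrinogen-like protein of hepatocytes that interleukin 6 induces and that binds the T cell receptor LAG3. It read 10.08, 10.70 and 10.55 in mTERT KO, against 11.40, 10.67 and 10.83 in mTERT WT, and 9.88, 10.28 and 10.61 in mTR KO, against 9.97, 10.17 and 10.02 in mTR WT. Unlike in Saa2, Lcn2 and both orosomucoids, mTERT KO 1 was not high for Fgl1 and ranked 9 of the 12 arrays.

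By group means the 10 genes had one order at the top. The mTERT WT mean was the highest of the 4 in 10 of 10 genes, against 24.1% of all tested genes, and the lowest mean was that of mTR WT in 7 genes and of mTR KO in 3. The count of 10 includes mTERT WT 1. Without that array the mTERT KO mean was below the mTERT WT mean in 7 of 10 genes, and above it in Saa2, Orm2 and Orm1. Below mTERT WT the neighbouring means lay within the spread of their arrays for most genes: Saa1, for example, averaged 6.12 ± 0.79 in mTERT KO, 7.46 ± 2.07 in mTERT WT, 6.18 ± 1.09 in mTR KO and 5.95 ± 0.447 in mTR WT (SD, n = 3 each). The SD of mTERT WT was the largest of the 4 groups in all 10 genes, from 0.171 for Itih4 to 2.67 for Saa2.

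Whether loss of the reverse transcriptase altered the acute phase genes was asked by comparing mTERT KO with mTERT WT. All 10 genes had lower means in mTERT KO, against 45.6% of tested probes, with a median log2 difference of −0.71 beside 0.01 over all tested probes. The largest differences were in Saa1 at −1.34 (SE 0.858), Lcn2 at −1.21 (SE 0.746) and Saa2 at −1.19 (SE 0.994), followed by Orm2 at −0.79 (SE 0.778). Saa3 differed by −0.71 (SE 0.374), Steap4 by −0.70 (SE 0.335), Fgl1 by −0.53 (SE 0.226) and Hp by −0.34 (SE 0.151). Orm1 at −0.13 (SE 0.147) and Itih4 at −0.11 (SE 0.114) differed least.

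None of the 10 passed: each had an adjusted p of 1 by limma over all tested probes, where 0% of probes passed. Fgl1 and Hp had unadjusted limma p-values of 0.0396 and 0.0469, which makes 2 of 10 genes at an unadjusted p under 0.05, both lower in KO, against 1.4% of tested probes in either direction and 0.659% lower. Skeletal muscle genes also differed in this comparison, with 12 of 12 lower in mTERT KO (median −1.67, and −1.10 without mTERT WT 1), 12 of them at an unadjusted limma p under 0.05 and none after adjustment. Pancreas genes were lower in 11 of 11 (median −0.68, and −0.43 without mTERT WT 1), and the part of either in the result was not tested. KO and WT arrays overlapped in all 10 genes, against no overlap at 4.33% of tested probes.

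Without mTERT WT 1 the median of the 10 differences was −0.12, and Saa2 (0.34, SE 0.481), Orm2 (0.22, SE 0.572) and Orm1 (0.05, SE 0.122) were then higher in mTERT KO, so the direction of Saa2, Orm2 and Orm1 rests on that array. Saa1 was −0.15 (SE 0.569), Lcn2 −0.12 (SE 0.437), Saa3 −0.23 (SE 0.282) and Itih4 −0.04 (SE 0.125). Hp was −0.13 (SE 0.105), Steap4 −0.18 (SE 0.143) and Fgl1 −0.31 (SE 0.217), and each of the 10 genes had an adjusted limma p of 1.

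**Figure D2:**
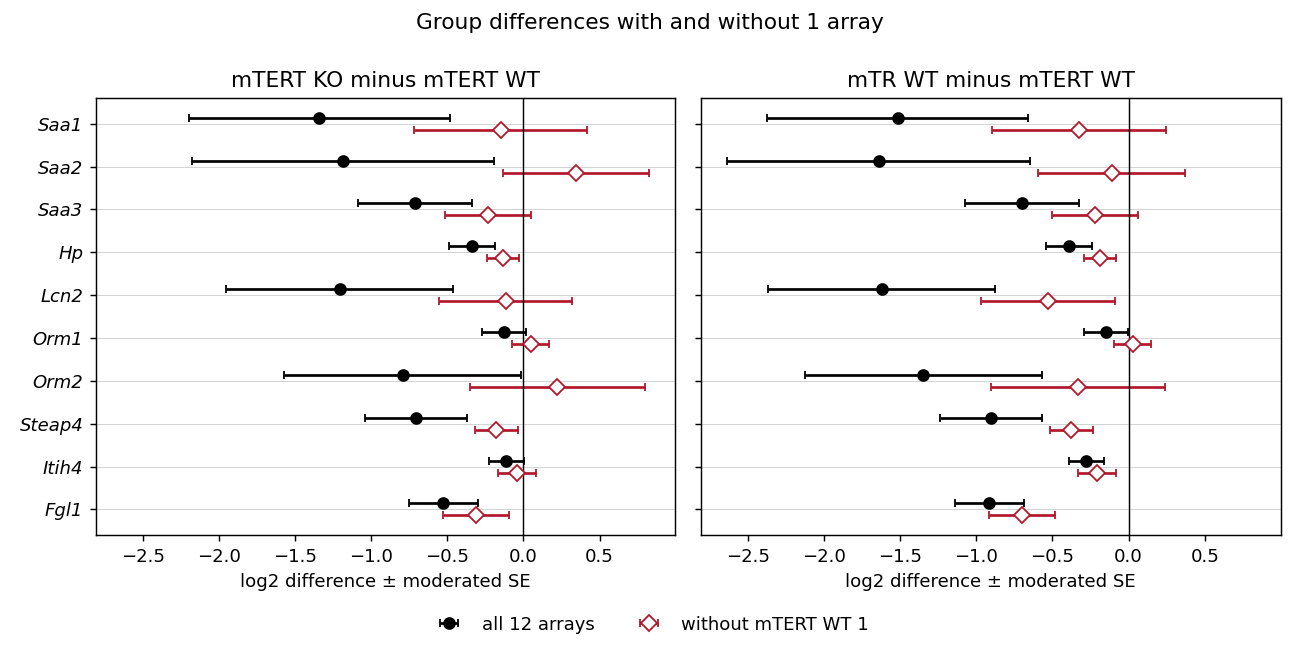
Log2 difference (horizontal axis, bars are the moderated SE of limma) for mTERT KO minus mTERT WT and for mTR WT minus mTERT WT, with all 12 arrays (black) and without mTERT WT 1 (red). Without that array Saa2, Orm1 and Orm2 cross 0 on the left, and Fgl1 keeps a difference of −0.70 on the right.

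Within litters of the mTERT line the KO was lower than its WT littermate in 10 of 10 genes in litter 1 (median −1.42), 6 of 10 in litter 2 (median −0.05) and 9 of 10 in litter 3 (median −0.27). Over all tested genes the shares were 46.9%, 45.3% and 50.3%. Saa1, Saa3, Hp, Lcn2 and Steap4 were lower in KO in all 3 litters, 5 of 10 genes, against 9.69% of tested probes. For Saa1 the litter differences were −2.81, −0.45 and −0.76, and for Saa3 −1.21, −0.39 and −0.55. For Lcn2 they were −2.66, −0.006 and −0.96, so litter 2 was level.

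With the litter as a block, Saa3 was −0.71 with an SE of 0.138 and an adjusted limma p of 0.622, the lowest of the 10. In that fit 7 of 10 genes were at an unadjusted p under 0.05, all lower in KO, against 5.13% of tested probes in either direction and 2.14% lower, and none passed after adjustment. With the block and without mTERT WT 1 it was 3 of 10, against 4.2% of tested probes. Both arrays of litter 1 were high in most genes, and mTERT KO 1 was among the 3 highest of 12 arrays in 8 of the 10.

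**Figure D3:**
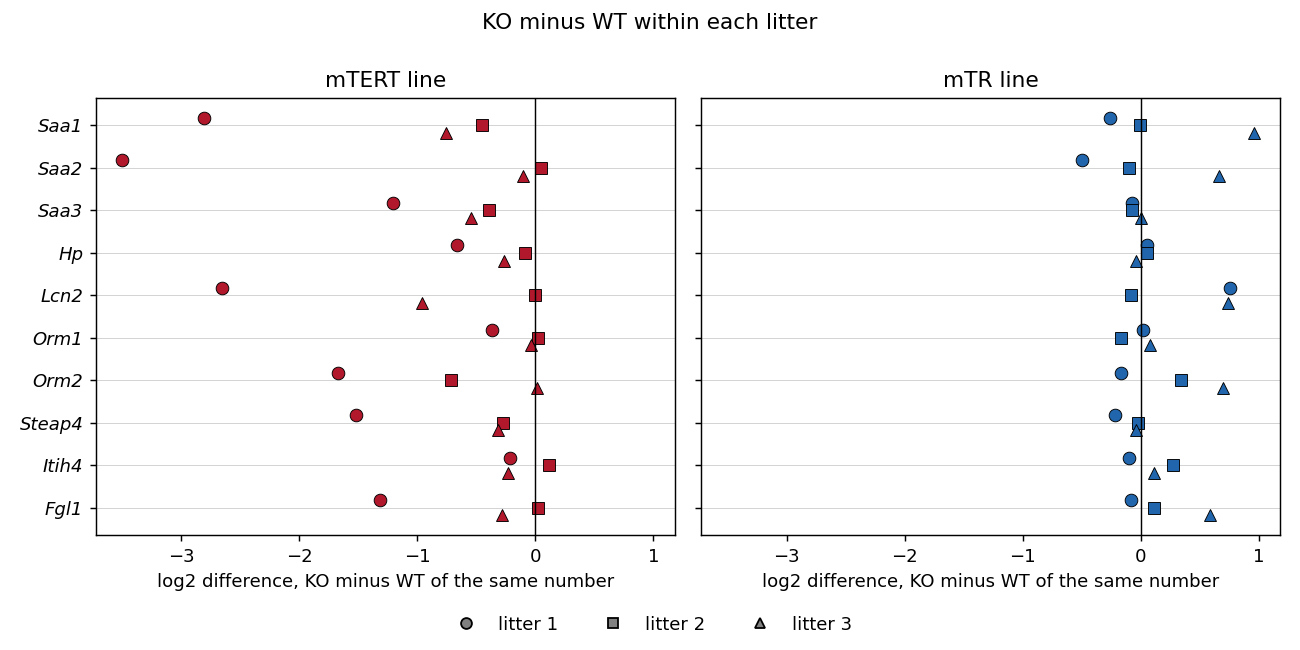
Log2 difference of KO minus WT within each litter (horizontal axis), with 1 symbol per litter, for the 10 genes in the mTERT and mTR lines. In the mTERT line litter 1 lies furthest left for every gene but Itih4, down to −3.50 for Saa2. In the mTR line most points lie near 0 and litter 3 reaches 0.96 for Saa1.

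Loss of the RNA template showed no shared direction. In mTR KO against mTR WT the median of the 10 differences was 0.06 beside −0.01 over all tested probes, with 3 genes below 0 and 7 above, where 54.1% of tested probes lay below 0. Lcn2 was 0.47 higher (SE 0.746, 95% interval −1.16 to 2.11), Orm2 0.29 (SE 0.778), Saa1 0.23 (SE 0.858) and Fgl1 0.21 (SE 0.226). Steap4 differed by −0.09 (SE 0.335), Saa3 by −0.05 (SE 0.374) and Hp by 0.03 (SE 0.151, 95% interval −0.31 to 0.36). The fit shares 1 estimate of the spread over the 4 groups. These SEs and intervals therefore also hold the spread of mTERT WT, with mTERT WT 1 in it. Without mTERT WT 1 the differences in the mTR line were unchanged. The SE was then 0.391 for Lcn2, 0.512 for Orm2, 0.509 for Saa1 and 0.128 for Steap4.

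None of the 10 passed in the mTR line, with an adjusted limma p of 1 each, where 0% of probes passed. None was at an unadjusted p under 0.05, against 0.965% of tested probes, or 4.21% with the litter as a block, where again none of the 10 was. With the block and without mTERT WT 1 it was 1 of 10, beside 835 of 20197 tested probes. Without set 1 and with no block it was 1 of 10, beside 473 of 20197. KO and WT arrays overlapped in all 10 genes, against no overlap at 4.48% of tested probes. By litter, 7, 6 and 2 of 10 genes were lower in KO in litters 1, 2 and 3, and litter 3, with mTR KO 3, had a median of 0.35. Without mTR KO 3 Saa1 was −0.37 and Saa2 −0.47. For Saa1 the 95% interval of the difference was −1.64 to 2.11 on the log2 scale, with the spread of mTERT WT included.

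The difference between the effects of both losses was tested directly as an interaction. It was above 0 in 10 of 10 genes (0 of 10 below 0, against 55.4% of tested probes), with a median of 0.70. Fgl1 had the smallest unadjusted limma p (difference 0.73, SE 0.32, p 0.0424, adjusted p 1), the sole gene of the 10 under 0.05 in the fit without the litter, against 1.45% of tested probes, and 0% of probes passed after adjustment. With the litter as a block 6 of 10 were under 0.05 (Saa1, Saa3, Hp, Lcn2, Orm2 and Fgl1), against 6.26% of tested probes, and the lowest adjusted limma p of the 10 was 0.751. Without mTERT WT 1 the median was 0.15 and 2 of 10 genes lay below 0, and with the block 4 of 10 were then under 0.05, against 5.37%. Averaged over both lines, the KO effect was below 0 in 10 of 10 genes, against 49.4% of tested probes, and its median was −0.31. The median was 0.02, and 4 of 10 lay below 0, when mTERT WT 1 was left out. In that average 0 of 10 genes were at an unadjusted limma p under 0.05, against 0.708% of tested probes, and 0% of probes passed. With the litter as a block 2 of 10 were (Saa3 and Steap4), against 3.16%, and 2 of 10 without mTERT WT 1, against 3.1%, none of them after adjustment.

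Between the wild types of both lines Fgl1 had the lowest p of the 10 genes. In mTR WT against mTERT WT all 10 genes were lower in mTR WT, against 45.5% of tested probes, with a median of −0.91. Fgl1 differed by −0.92 (SE 0.226, unadjusted limma p 0.00179, adjusted p 1), Steap4 by −0.90 (SE 0.335, p 0.0201), Hp by −0.39 (SE 0.151, p 0.0243) and Itih4 by −0.28 (SE 0.114, p 0.0325). These 4 are also the genes whose mTR WT arrays all lay below all mTERT WT arrays, against 2.33% of tested probes (5.95% without overlap in either direction). At an unadjusted p under 0.05 they make 4 of 10 genes, against 2.6% of tested probes in either direction and 1.15% lower, and 0% of probes passed after adjustment. With the set number as a block, which joins no littermates across the lines, 7 of 10 were under 0.05, against 6.86% of tested probes, and 4 of 10 without mTERT WT 1, against 7.12%. The lowest adjusted limma p of the 10 with that block was 0.507.

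Without mTERT WT 1 Fgl1 was −0.70 (SE 0.217, unadjusted limma p 0.00847) and Steap4 −0.38 (SE 0.143, p 0.0239), each with an adjusted p of 1. Hp was then −0.19 (SE 0.105) and Itih4 −0.21 (SE 0.125), and 9 of 10 genes were still below 0. Saa1 and Saa2, at −1.52 and −1.64 with all arrays, were −0.33 (SE 0.569) and −0.11 (SE 0.481) without mTERT WT 1. The mTERT WT group is shared with the mTERT comparison above, so these values are not independent of it. Kupffer cell genes were lower in mTR WT in 11 of 11 (median −0.34 with and without mTERT WT 1), skeletal muscle genes in 12 of 12 (median −1.80, and −1.12 without it) and pancreas genes in 11 of 11 (median −1.71, and −1.49 without it). Their part in the result was not tested.

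The other genes of the pathway followed mTERT WT 1 to different degrees. These lists were written with earlier results of the data known and no gene in them passed in any comparison. Of 21 other genes that rise in the response, 15 were highest in mTERT WT 1, against 10.2% of tested probes. Metallothionein 2 (Mt2), which binds zinc and copper, was 10.82 there and 5.45 to 8.34 elsewhere, and Mt1 was 10.59 against 6.66 to 9.10. Lrg1, a secreted leucine-rich glycoprotein, was 11.29 against 9.61 to 10.45, Lbp, which carries bacterial lipopolysaccharide, 10.33 against 8.96 to 9.59, and Saa4 11.05 against 9.65 to 10.25. Mt1, Mt2 and Lbp were picked after their values were seen.

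In mTERT KO against mTERT WT 18 of the 21 were lower (median −0.16), against 45.6% of tested probes. Serpina3n, a protease inhibitor, was at −0.29 (SE 0.16), the complement gene Cfb at −0.17 (SE 0.0944) and Saa4 at −0.46 (SE 0.267). Leaving out mTERT WT 1 gave 12 of 21 (median −0.05), with Serpina3n at −0.10, Cfb at −0.11 and Saa4 at −0.10. In the mTR line 14 of 21 were above 0 and 7 below it (median 0.05), where 54.1% of tested probes lay below 0, with Orm3 at 0.33 (SE 0.338). In mTR WT against mTERT WT 19 of 21 were lower (median −0.29), against 45.5% of tested probes. Serpina3n was at −0.52 (SE 0.16), Itih3 at −0.49 (SE 0.156) and the haem-binding hemopexin gene Hpx at −0.30 (SE 0.112). Leaving out mTERT WT 1 gave 15 of 21 (median −0.10), with Serpina3n at −0.33, Itih3 at −0.31 and Hpx at −0.23. Each of these genes had an adjusted limma p of 1. Of the 5 inter-alpha-trypsin inhibitor chains, Itih3 and Itih4 were highest in mTERT WT 1, and Itih1, Itih2 and Itih5 were not.

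Of 31 signals, receptors and transcription factors listed, 27 were measured and 22 tested. Il6 and Tnf were below background in all 12 arrays. Socs3, a feedback inhibitor of this signal, had a mean below background, with 4.68 in mTERT KO 3, 4.57 in mTERT WT 1 and 4.49 in mTERT WT 3 above it. Il6, Tnf and Socs3 are named outside the rule for named genes given below. Il1b and Il1a had means above background, at 4.81 and 4.55. Il1b read 5.27 in mTERT WT 1, against 4.10 to 6.01 in the others, highest in mTERT KO 3. It differed by −0.48 (SE 0.428) in mTERT KO against mTERT WT, and by −0.48 without mTERT WT 1. In mTR WT against mTERT WT it differed by −0.70 (SE 0.428). Stat3, the factor that interleukin 6 activates and that raises its own transcription, read 8.31, 8.49 and 8.35 in mTERT KO, against 9.26, 8.54 and 8.90 in mTERT WT. Its difference was −0.51 (SE 0.163, unadjusted limma p 0.00892, adjusted p 1), and −0.33 without mTERT WT 1. It was 1 of the 22 tested genes at an unadjusted p under 0.05, against 1.4% of tested probes. The KO arrays of Stat3 all lay below its WT arrays, the nearest at 8.49 and 8.54, where 4.33% of tested probes had no overlap. In the mTR line Stat3 read 8.39, 8.35 and 8.37 in KO, against 8.30, 8.25 and 8.63 in WT, which overlap. Nfkbiz, an NF-kappa-B cofactor, was 5.48 in mTERT WT 1 and 4.31 to 4.81 elsewhere. By direction 15 of 22 were lower in mTERT KO (median −0.06), against 45.6% of tested probes, and 11 of 22 without mTERT WT 1 (median 0.01). In mTR KO 15 of 22 were lower than in mTR WT (median −0.05), against 54.1% of tested probes.

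Cebpb, which encodes a C/EBP factor and was picked after its values were seen, was highest of the 12 arrays in mTERT WT 1, as the 10 genes were. It was also highest in array 1 of every group, at 8.81, 7.97 and 7.01 in mTERT KO, against 9.19, 7.67 and 7.13 in mTERT WT, and at 8.71, 7.36 and 7.61 in mTR KO, against 8.60, 7.46 and 7.62 in mTR WT. That pattern was not particular to Cebpb. Hnf4a and Apoa2 were also highest in array 1 of every group, and Jak2 and Nr3c1 were lowest there, all picked after their values were seen. The share of all genes with such a pattern was not counted. Of the 10 acute phase genes, 8 were highest in array 1 of mTERT KO and 10 in array 1 of mTERT WT, against 34.1% and 32.4% of all tested genes. For the mTR line, 3 were highest in array 1 of mTR KO and 5 in array 1 of mTR WT, against 33.9% and 35.4%.

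Genes whose products fall in the response differed little. In mTERT KO against mTERT WT 10 of 14 tested were above 0 and 4 below it, where 45.6% of tested probes lay below 0. Their median was 0.03 and none passed, and 7 of 14 lay below 0 without mTERT WT 1 (median −0.003). Between mTR KO and mTR WT 7 of 14 were above 0 and 7 below it (median −0.005), where 54.1% of tested probes lay below 0. Igf1, Igfals and Serpina6, which encode a growth factor, its carrier and the corticosteroid carrier, had their lowest value in mTERT WT 1. Their differences from the median of the other 11 livers were −0.71, −0.68 and −0.63. Like Jak2 and Nr3c1, Igf1 was lowest in array 1 of every group. It read 9.44 to 9.88 in those arrays and 10.04 to 10.27 in the rest. Its low value in mTERT WT 1 therefore cannot be told apart from that pattern. Igfals and Serpina6 were not lowest in array 1 of mTR WT. In mTERT WT 1, 6 of the 14 lay above the median of the other 11 livers and 8 below it (median −0.09). Of all tested genes 43.5% lay above it (median −0.04). Apoa2 was the furthest above, at 0.29. Igf1 and Apoa2 were picked after their values were seen. Alb, the albumin gene, was 13.45 in mTERT WT 1, against 13.45 to 13.61 in the others.

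**Figure D4:**
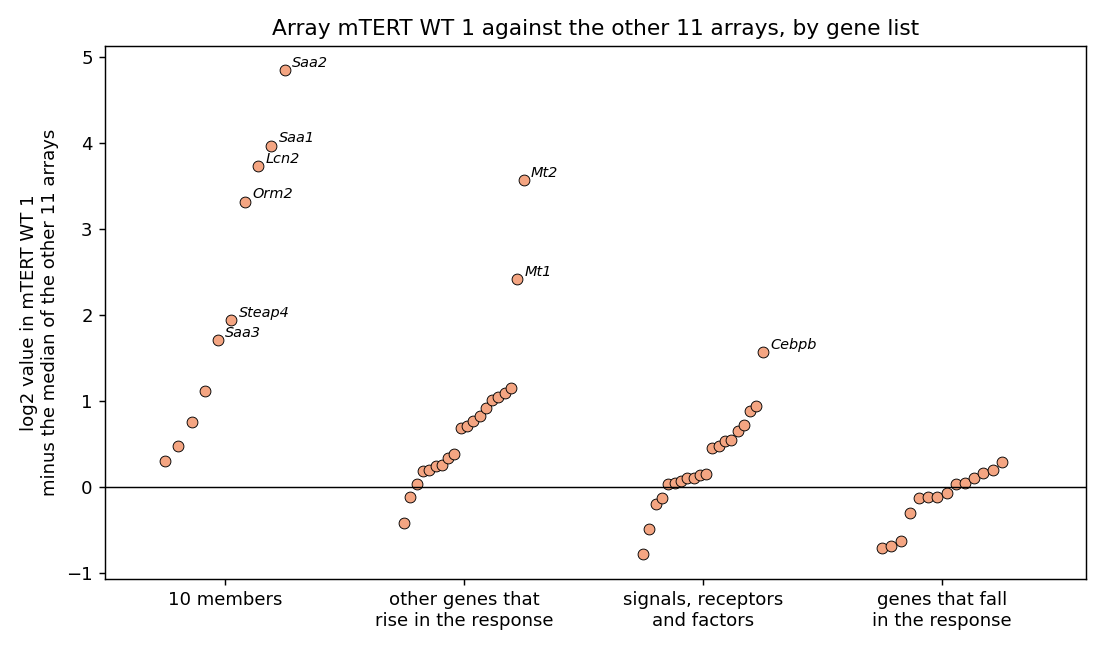
Log2 value in mTERT WT 1 minus the median of the other 11 arrays (vertical axis), 1 point per gene with a mean above background, for the 10 genes and 3 other lists. All 10 members lie above 0, up to 4.85 for Saa2, and the genes that fall in the response lie on both sides of 0.

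Markers of other tissues also differed between arrays. Averaged over 12 muscle genes, arrays mTERT WT 1 and mTERT WT 3 reached 6.92 and 6.56, while the remaining 10 stayed between 3.88 and 4.52, and 6 of the 12 genes had means below background. With muscle transcripts nearly as high, mTERT WT 3 had a mean of 9.07 over the 10 acute phase genes, against 10.83 in mTERT WT 1. The 11 pancreas genes averaged 7.45 in mTERT WT 1, 9.79 in mTERT KO 1 and 11.24 in mTR KO 1, where the 10 acute phase genes averaged 10.83, 9.24 and 8.57. Kupffer cell genes averaged 7.62 in mTERT WT 1, against 7.05 to 8.0 in the others, highest in mTERT WT 3.

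Fat cell genes were near background, at 4.25 in mTERT WT 1, against 3.92 to 4.10 elsewhere, with 5 of 6 means below it. For lymphocyte genes, 9 of 10 of them below background, the mean was 3.99 in mTERT WT 1 and the other arrays spanned 3.92 to 4.33. Bile duct genes averaged 4.36 in mTERT WT 1 and 4.25 to 4.82 elsewhere. The part of muscle and pancreas transcripts in the acute phase values was not tested.

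**Figure D5:**
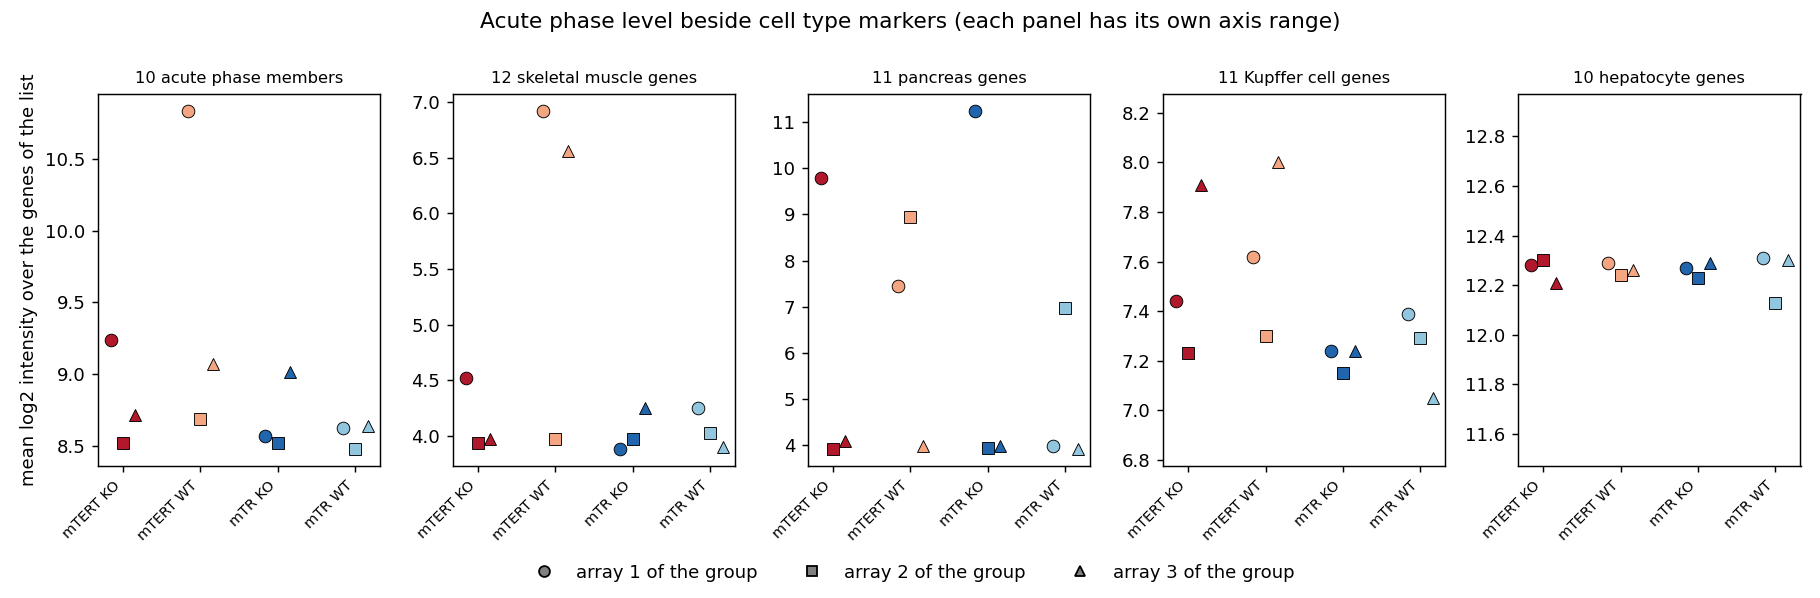
Mean log2 intensity (vertical axis) over the 10 acute phase genes and over marker genes of muscle, pancreas, Kupffer cells and hepatocytes in each array. Muscle genes are high in mTERT WT 1 and 3, pancreas genes in 5 arrays, and hepatocyte genes within 12.13 to 12.31 in all arrays.

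Outside mTERT WT 1 the 10 genes moved together only in part. Over 12 arrays the correlation between 2 of the genes lay between 0.48 and 0.97 with a median of 0.82 over 45 pairs, which includes mTERT WT 1. Over the other 11 arrays it lay between −0.25 and 0.88 with a median of 0.36, and 5 pairs were below 0. These correlations are descriptions over arrays that share litters. Saa1 with Saa2 remained at 0.88 without mTERT WT 1.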

How the data were processed

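Total RNA of 12 mouse livers was measured on 12 one-colour Affymetrix arrays, per the labels' protocols. The values are log2 intensities as the authors deposited them, with GCOS 1.4, PLIER and Affymetrix Expression Console listed, in no stated role, by the submitters' processing notes. The normalization, the log base and any filter are not given in the sources used here, and base 2 was inferred from the range of 2.62 to 13.83. Array medians lay between 4.37 and 4.43. The number of arrays sets the precision. Of 28853 probes, 21789 had 1 gene symbol, 1621 several and 5443 none in the platform annotation.

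Group means were fitted over all 12 arrays with limma 3.58.1 under R 4.3.3, using lmFit and eBayes, on the 20197 probes whose mean over arrays reached the 30th percentile of probe means (3.898). Two-sided p-values were adjusted over all tested probes (Benjamini-Hochberg) and called at 0.05. The fit was tested on simulated data. SE is the moderated standard error. The p-values measure the spread between animals, 3 a group, pooled over the 4 groups.

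The series text states that each set holds littermates, so the number was taken as the litter. With group means removed, deviations of the arrays read as littermates had correlations of 0.692, 0.135 and 0.623 for mTERT sets 1 to 3. For mTR sets they were 0.458, 0.151 and 0.552. Each was above 0.1, so a further fit took the litter as a block. No such correlation was taken between lines, so litter cannot be told apart from anything else that arrays of 1 number share. Jak2, picked after its values were seen, read 5.90 to 6.03 in array 1 of all 4 groups and 6.46 to 6.79 in the others. Named genes are the 10 members, the genes with the largest moderated t in each list, and those most like the members' mean. Exceptions are marked as picked after their values were seen or as named outside this rule. The members and lists were chosen with earlier results of these data known. Alternatives were another normalization or centring, other filters, variance priors, array weights, smaller fits, and arrays or set 1 left out. Sequences and positions are from RefSeq, GRCm38.p6, with 7 of the 10 members matched to its promoter table.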

Additional observations from a re-analysis of the deposited data

How the results depend on the processing

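None of the 10 genes passed an adjusted p of 0.05 by limma in any comparison under any setting tried. The replicate block called 0 probes in each of the 5 comparisons, with 1037, 851, 639, 1264 and 1386 probes at an unadjusted p under 0.05 (mTERT, mTR, mean of both, interaction, wild types), and left the medians of the 10 genes at −0.709, 0.062, −0.308, 0.699 and −0.909. It changed no call.

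Leaving out 1 array at a time moved the number of probes called between 0 and 41 in the mTERT comparison, 0 and 28 in the mean of both, 0 and 30 in the interaction and 0 and 42 between wild types, each time with the highest count without mTERT WT 2, and the 10 genes were not among them. Without set 1 there was 1 call in each of the mTERT, mTR and mean comparisons. The median of the 10 differences lay between −1.006 and −0.124 in the mTERT comparison, 0.149 and 0.963 in the interaction and −1.099 and −0.273 between wild types, the value nearest 0 being that without mTERT WT 1. It was −0.234 in the mTERT comparison and −0.312 between wild types without set 1. The settings chosen after seeing the data gave −0.234 in the mTERT comparison, without litter 1 or with the block and mTERT WT 1 left out, and −0.273 and −0.329 between wild types.

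Signs that changed, with 1 array left out, are given as ranges. In the mTERT comparison they were −2.116 to 0.344 for Saa2, −0.263 to 0.048 for Orm1 and −1.514 to 0.224 for Orm2. In the mTR comparison they were −0.37 to 0.682 for Saa1, −0.468 to 0.358 for Saa2, −0.208 to 0.106 for Saa3, −0.027 to 0.059 for Hp and −0.081 to 0.067 for Orm1. In the mean of both they were −0.885 to 0.042 for Saa1, −1.047 to 0.183 for Saa2, −0.754 to 0.179 for Lcn2, −0.141 to 0.014 for Orm1, −0.611 to 0.258 for Orm2 and −0.053 to 0.029 for Itih4. In the interaction they were −0.322 to 2.138 for Saa2 and −0.067 to 0.243 for Orm1, and between wild types −0.283 to 0.027 for Orm1.

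Other sign changes were small. Hp in the mTR comparison was −0.01 with quantile normalization and −0.001 with array weights, and Saa3 was 0.024 with array weights. In the mean of both, array weights gave 0.011 for Itih4 and for Fgl1, leaving out set 1 gave 0.127 for Saa2, 0.084 for Orm2, 0.07 for Itih4 and 0.111 for Fgl1, and the settings chosen later gave 0.021 for Itih4 and 0.038 for Fgl1. Orm1 was −0.033 without set 1 and −0.012 under both later settings in the interaction, and 0.023 without set 1 and 0.027 without litter 1 between wild types. The cause was not tested. Each of the 10 genes had 1 probe, so no other probe could be compared, and a fit of the comparison's groups alone was not separate where all 4 groups take part. With 3 arrays a group, a difference within the spread of an inducible gene such as Saa2 could not be detected.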

Other observations

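Genes outside the 10 also stood high in mTERT WT 1. Of the 14 tested probes that exceeded all other arrays by more than 1 log2 unit there, 6 belonged to the 10 acute phase genes, and the others were Mt2, Mt1, Myh4, Cox8b, Scara5, Pvalb, Actn3 and 1 probe with no gene symbol. Myh4, Actn3, Pvalb and Cox8b are skeletal muscle genes, and Scara5 encodes a ferritin receptor. Scara5 reached 6.99 in mTERT WT 1, against 4.53 to 5.72 elsewhere, with mTERT KO 1 at 5.72.

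The 8 genes of 14149 whose values correlated best with the mean of the 10 members over 12 arrays were Tmem176b (r = 0.94), Actn3 (0.94), Myh4 (0.93), Cox8b (0.93), Nfkbiz (0.92), Lrg1 (0.92), Pvalb (0.91) and Scara5 (0.90). These are descriptions over 12 arrays. Without mTERT WT 1 the correlation was 0.83 for Tmem176b, 0.68 for Lrg1, 0.61 for Scara5 and 0.55 for Nfkbiz. For the muscle genes it was then 0.69 for Myh4, 0.64 for Actn3, 0.64 for Pvalb and 0.49 for Cox8b. Tmem176b was 10.23 in mTERT WT 1, against 9.31 to 9.77 elsewhere.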
